A study of Homo sapiens with 14 samples.

Results

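The SLC7 amino acid transporters and SLC3A2 were followed through early pancreatic differentiation of the human embryonic stem cell line HUES8. The 10 genes, SLC7A1, SLC7A2, SLC7A3, SLC7A5, SLC7A6, SLC7A7, SLC7A8, SLC7A11, SLC7A14 and SLC3A2, were taken by symbol from the 59050 genes of the count table. All 10 had enough counts to be tested in both assays. RNA sequencing of total RNA (RNA) and ribosome profiling (Ribo, the sequencing of ribosome-protected RNA fragments, called footprints) were done at 3 stages of unmodified (wild-type) cells. The stages were definitive endoderm (DE, 2 libraries per assay), early pancreatic progenitors (PP1, 2 libraries per assay) and late pancreatic progenitors (PP2, 3 libraries per assay), 14 libraries in all. HUES8 is 1 established line, and the labels do not say whether replicate libraries came from separate differentiations, so every p-value measures spread between libraries that could be technical. On the GRCh38.p14 annotation SLC7A7 (chr14:22773222-22819791) and SLC7A8 (chr14:23125295-23183660) lie close together.

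SLC7 proteins carry amino acids across membranes and fall into 2 branches. The glycoprotein-associated light chains work as pairs with a heavy chain, SLC3A2 (4F2hc or CD98), which brings them to the cell surface. Among them SLC7A5 (LAT1) and SLC7A8 (LAT2) exchange large neutral amino acids, SLC7A6 and SLC7A7 (y+LAT2 and y+LAT1) exchange cationic for neutral ones, and SLC7A11 (xCT) imports cystine, the precursor of glutathione, in exchange for glutamate. The cationic branch, SLC7A1, SLC7A2 and SLC7A3 (CAT-1, CAT-2 and CAT-3), takes up arginine, lysine and ornithine without a heavy chain, and SLC7A14 is a lysosomal relative. Transcription of several of these genes is raised by ATF4, the effector of the amino acid and endoplasmic reticulum stress responses, and SLC7A11 is also a target of the oxidative stress factor NRF2 (NFE2L2).

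RNA libraries held 15107847 to 21009065 counts and Ribo libraries 4710335 to 24186949. Levels are given in CPM, counts scaled to library size with TMM factors computed within each assay, and changes are log2 values ± SE from edgeR's quasi-likelihood fit, with p-values adjusted over all genes tested. Marker RNA set DE apart from the 2 later stages: 6 definitive endoderm genes summed to 6217 to 6561 CPM of RNA at DE, 323 to 366 CPM at PP1 and 115 to 252 CPM at PP2. The 6 pancreatic progenitor genes summed to 93.3 to 95.8, 395 to 414 and 269 to 1032 CPM at DE, PP1 and PP2, with PDX1 and NKX6-1 at 0 at DE. Their PP2 range thus enclosed that of PP1, and their summed RNA did not separate these stages. Gene by gene, 2 of the 6 were called higher and 0 lower in PP2 RNA over PP1, against 7.8% and 10.6% of all genes. The median change of the 6 was 1.36, against 0.0051 over all genes. In footprints the 6 genes summed to 31.0 to 31.9, 140 to 145 and 499 to 710 CPM at DE, PP1 and PP2. Marker RNA of other lineages was also measured, and 6 hepatic markers summed to 13.8 to 14.6 CPM of RNA at DE, 8772 to 9331 CPM at PP1 and 4372 to 6526 CPM at PP2. Some libraries stood apart from their group. RNA PP2 library 3 had 0.9502% of counts in mitochondrial protein-coding genes against 3.34% and 3.74% in the other PP2 RNA libraries. In Ribo PP2 libraries 1, 2 and 3, protein-coding genes took 91.5%, 42.6% and 77.5% of counts, and MT-RNR2, a ribosomal RNA of mitochondria, 1.65%, 44.6% and 11.0%.

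Promoter sequence was looked at because several of the 10 genes moved together. RefSeq start-site windows (GRCh38.p14, 250 bases before and 50 after each annotated start) were found for 7 of the 10 genes; SLC7A2, SLC7A3 and SLC7A11 had no window. Both strands were searched for TGATGNAA, the core of the C/EBP-ATF response element bound by ATF4, and TGACNNNGC, the core of the antioxidant response element bound by NRF2. The windows of SLC7A1 and of 1 of the 3 SLC3A2 starts held both, and the SLC7A5 window held TGACNNNGC only. These are shown as the windows of a cationic carrier, the heavy chain and the light chain with the most RNA at DE. They are given 5′ to 3′ on the gene's strand, with the matches in capitals. In the lines for SLC7A1 and SLC7A5 the stretch runs from 120 bases before to 29 bases after the first transcribed base, and SLC3A2 is given as the 120 bases before it and a 30-base stretch 20 to 49 bases after it.
SLC7A1 (chr13:29595659-29595808, minus strand): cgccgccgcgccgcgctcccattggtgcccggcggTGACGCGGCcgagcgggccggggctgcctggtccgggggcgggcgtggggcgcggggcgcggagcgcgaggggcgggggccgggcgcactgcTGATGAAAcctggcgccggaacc
SLC3A2, before the start (chr11:62881579-62881698, plus strand): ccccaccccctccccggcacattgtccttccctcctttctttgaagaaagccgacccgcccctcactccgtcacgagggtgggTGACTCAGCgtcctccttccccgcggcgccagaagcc
SLC3A2, after the start (chr11:62881719-62881748, plus strand): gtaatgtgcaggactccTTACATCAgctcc
SLC7A5 (chr16:87869478-87869627, minus strand): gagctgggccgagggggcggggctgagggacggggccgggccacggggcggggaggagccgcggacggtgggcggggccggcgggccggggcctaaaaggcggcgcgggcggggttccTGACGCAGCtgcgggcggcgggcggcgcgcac
The SLC3A2 match TTACATCA is TGATGNAA read on the opposite strand, and no printed matches overlap. Among all 35116 windows, 3.62% held TGATGNAA, 13.3% held TGACNNNGC and 0.390% held both. SLC7A6 and 1 SLC7A7 window held TGACNNNGC only, and the SLC7A8 and SLC7A14 windows held neither. A match describes letters in a window and does not show that a factor binds.

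The passage to PP1 brought a rise in RNA of 5 of the 10 transporter genes, SLC7A7, SLC7A11, SLC7A1, SLC7A2 and SLC7A8, while SLC7A14 fell. Among all 24603 genes tested, 24.3% were called in this comparison, 12.3% as higher and 12% as lower in PP1. The median change of the 10 genes was 1.73, against 0.0056 over all genes. In these bulk samples more cells of a type and more RNA per cell cannot be told apart.

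**Figure D1:**
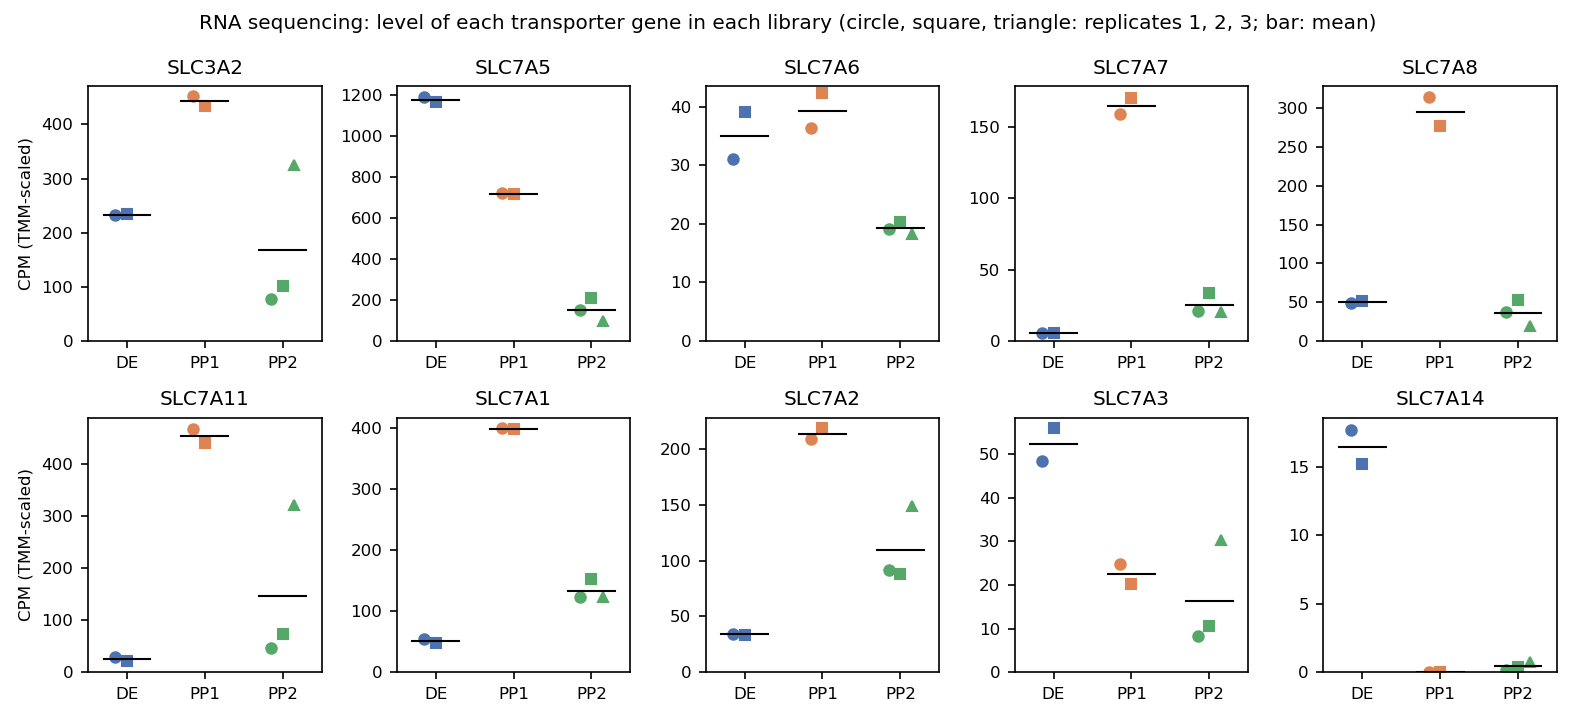
RNA level of each gene (vertical axis, CPM of TMM-scaled library size, linear from 0, a scale of its own in each panel) in each library at DE, PP1 and PP2 (circle, square and triangle for replicates 1, 2 and 3, bar for the mean). SLC7A1, SLC7A2, SLC7A7, SLC7A8 and SLC7A11 peak at PP1, SLC7A5 is highest at DE, and PP2 replicate 3 lies apart for SLC3A2 (326 CPM) and SLC7A11 (322 CPM).

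SLC3A2, the heavy chain, had 232 and 234 CPM of RNA in the DE libraries, 452 and 433 CPM in the PP1 libraries and 77.4, 101 and 326 CPM in the PP2 libraries. Its 2 PP1 libraries lay above all others, while the PP2 libraries spread from below to above DE. The difference between PP1 and DE, 0.92 ± 0.59, did not pass (adjusted p = 0.312). Leaving out RNA PP2 library 3 gave 0.93 with adjusted p = 1.93e-07. That library is in neither stage compared and bears on the p-value through the spread shared by all RNA libraries. Without it, 6049 genes were called higher and 5948 lower in PP1 over DE among all 24105 tested.

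SLC7A5, the leucine carrier, had 1189 and 1165 CPM at DE, 721 and 716 CPM at PP1 and 149, 210 and 97.4 CPM at PP2. No library overlapped between stages, and each later stage was lower. The change in PP1 over DE of -0.71 ± 0.33 did not pass (adjusted p = 0.159) but passed without RNA PP2 library 3 (adjusted p = 2.37e-05). That library is in neither stage compared, and without it the change stayed at -0.71. Reads of the pseudogene SLC7A5P1, at 0.783 to 11.2 CPM, may partly belong to SLC7A5. SLC7A6 had 31.1 and 39.1 CPM at DE, 36.4 and 42.4 CPM at PP1 and 19.0, 20.4 and 18.2 CPM at PP2, so that DE and PP1 overlapped and PP2 lay below both.

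SLC7A7, the carrier mutated in lysinuric protein intolerance, had 5.34 and 5.25 CPM at DE, 159 and 170 CPM at PP1 and 20.9, 33.7 and 20.05 CPM at PP2. The 3 stages were fully separated, and the rise in PP1 over DE of 4.96 ± 0.32 was the largest of the 10 genes (adjusted p = 3.37e-05). SLC7A8 also peaked at PP1, with 49.5 and 52.0 CPM at DE, 314 and 278 CPM at PP1 and 37.2, 53.3 and 18.7 CPM at PP2. Its PP1 change was 2.54 ± 0.43 (adjusted p = 0.00337), and PP2 overlapped DE.

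SLC7A11, the cystine carrier, had 28.7 and 21.1 CPM at DE, 466 and 439 CPM at PP1 and 47.4, 72.8 and 322 CPM at PP2. PP1 lay above every other library, and PP2 library 3 lay closer to PP1 than to the other PP2 libraries. Its rise in PP1 over DE was 4.18 ± 0.87 (adjusted p = 0.00933); it lost its call without RNA DE library 1 (4.42, adjusted p = 0.0697) or library 2 (3.97, adjusted p = 0.0881). The antisense gene SLC7A11-AS1 had 2.20 and 1.99 CPM at DE, 41.8 and 35.7 CPM at PP1 and 4.12, 5.66 and 12.1 CPM at PP2. No strand setting is given in the sources used here, so reads of the antisense gene and of SLC7A11 cannot be told apart where they overlap.

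In the cationic branch, SLC7A1, the main arginine carrier of most cells, had 55.4 and 48.0 CPM at DE, 399 and 397 CPM at PP1 and 124, 152 and 122 CPM at PP2. SLC7A2, an arginine carrier of liver and activated macrophages, had 34.4 and 33.6 CPM at DE, 208 and 219 CPM at PP1 and 91.2, 87.9 and 149 CPM at PP2. Both genes had their 3 stages in the order DE, PP2, PP1 with no overlap. Their rises in PP1 over DE were 2.94 ± 0.22 (adjusted p = 5.69e-05) and 2.65 ± 0.29 (adjusted p = 3.97e-04). The hepatic markers and 4 intestinal markers, at 16.0 to 16.3 CPM at DE and 423 to 479 CPM at PP1, rose in the same step. So did the summed RNA of 6 mesenchymal markers, from 58.1 to 70.4 CPM at DE to 319 to 364 CPM at PP1. Of these 6, 2 were called higher and 1 lower, against 12.3% and 12% of all genes. The part of these marker changes in the rises of SLC7A1 and SLC7A2 was not tested.

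SLC7A3, a cationic carrier abundant in pluripotent stem cells, ran the other way, with 48.4 and 56.0 CPM at DE, 24.9 and 20.2 CPM at PP1 and 8.45, 10.6 and 30.3 CPM at PP2. PP1 lay below DE, yet the change of -1.21 ± 0.54 did not pass (adjusted p = 0.147), and without RNA PP2 library 3 it did (adjusted p = 3.76e-07). Here too that library is in neither stage compared, and without it the change stayed at -1.21. The 4 pluripotent cell markers summed to 920 to 926 CPM at DE and 81.8 to 84.1 CPM at PP1, and their part was not tested. SLC7A14 had 526 RNA counts over the DE libraries and none at PP1, which makes it at least 186-fold lower in PP1 (floor of 3 counts over the group, adjusted p = 2.21e-04). It passed the count filter through DE, where its RNA was high, so its fall was favoured by the filter. Its antisense partner SLC7A14-AS1 was also lower in PP1, with 1 count against 53, and the reads of the pair cannot be told apart where the genes overlap.

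The passage to PP2 lowered the RNA of 6 genes relative to PP1, SLC7A1, SLC7A2, SLC7A5, SLC7A6, SLC7A7 and SLC7A8, and raised that of SLC7A14. In all, 18.4% of genes were called between PP2 and PP1, 7.8% as higher and 10.6% as lower in PP2. The median change was -1.49, against 0.0051 over all genes. SLC7A8 showed -3.02 ± 0.37 (adjusted p = 0.00161), SLC7A7 -2.73 ± 0.24 (adjusted p = 4.27e-04) and SLC7A5 -2.24 ± 0.30 (adjusted p = 0.00217). The falls of SLC7A1 (-1.58), SLC7A6 (-1.04) and SLC7A2 (-0.97) were smaller. SLC7A14 reached 27 counts over the PP2 libraries against none in PP1, at least 5.04-fold higher. Its largest PP2 value was 0.737 CPM, far under the 17.7 and 15.2 CPM of DE.

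SLC7A11 (-1.62 ± 0.68, adjusted p = 0.139), SLC3A2 (-1.40 ± 0.53, adjusted p = 0.104) and SLC7A3 (-0.45 ± 0.48, adjusted p = 0.553) did not pass between PP2 and PP1. Without RNA PP2 library 3 these 3 values became -2.91, -2.31 and -1.24, and all 10 genes passed, 9 lower and 1 higher. Calls also grew in number over all genes in that setting, to 4377 higher and 5607 lower of 24105 tested. Leaving out RNA PP1 library 2 instead left 4 calls, as SLC7A2 (-0.92, adjusted p = 0.168), SLC7A6 (-0.92, adjusted p = 0.0830) and SLC7A14 lost theirs. SLC7A2 also lost its call without RNA PP1 library 1, either DE library, or PP2 library 1 or 2 (-1.004 to -0.82, adjusted p 0.0678 to 0.154), and SLC7A14 without RNA PP1 library 1, either DE library or PP2 library 2 (adjusted p 0.0501 to 0.124).

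PP2 and DE differed in the RNA of 8 genes, 4 in each direction, where 33.5% of all genes were called, 16.4% as higher and 17.1% as lower in PP2. SLC7A11 (2.57 ± 0.77, adjusted p = 0.0344), SLC7A7 (2.23 ± 0.27), SLC7A2 (1.69 ± 0.27) and SLC7A1 (1.36 ± 0.19) were higher in PP2. SLC7A14 (-5.19 ± 0.46), SLC7A5 (-2.95 ± 0.30), SLC7A3 (-1.66 ± 0.48, adjusted p = 0.0287) and SLC7A6 (-0.87 ± 0.18) were lower. The median change was -0.48, against 0.049 over all genes. The size for SLC7A11 rests on library 3: without it the change was 1.28 (adjusted p = 9.19e-07). SLC3A2, at -0.47 (adjusted p = 0.533) with all libraries, passed as lower without that library (-1.38, adjusted p = 6.68e-10). SLC7A11 and SLC7A3 lost their calls without any 1 of the DE or PP1 libraries (adjusted p 0.0521 to 0.200), SLC7A3 also without RNA PP2 library 1 (-1.34) or 2 (-1.42), and SLC7A6 without DE library 2 (-0.70, adjusted p = 0.0960).

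In ribosome footprints SLC7A7, SLC7A11, SLC7A2 and SLC7A1 rose in PP1 over DE and no gene fell, where 7.53% of 15067 genes were called, 4.52% as higher and 3.01% as lower in PP1. At an unadjusted p under 0.05 the count was 5 higher and 2 lower, and DESeq2 called 5 genes and limma voom 7. Among all 15067 genes DESeq2 called 971 higher and 685 lower, and limma voom 1551 higher and 1497 lower. The median change of the 10 genes was 1.181, against -0.039 over all genes.

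**Figure D2:**
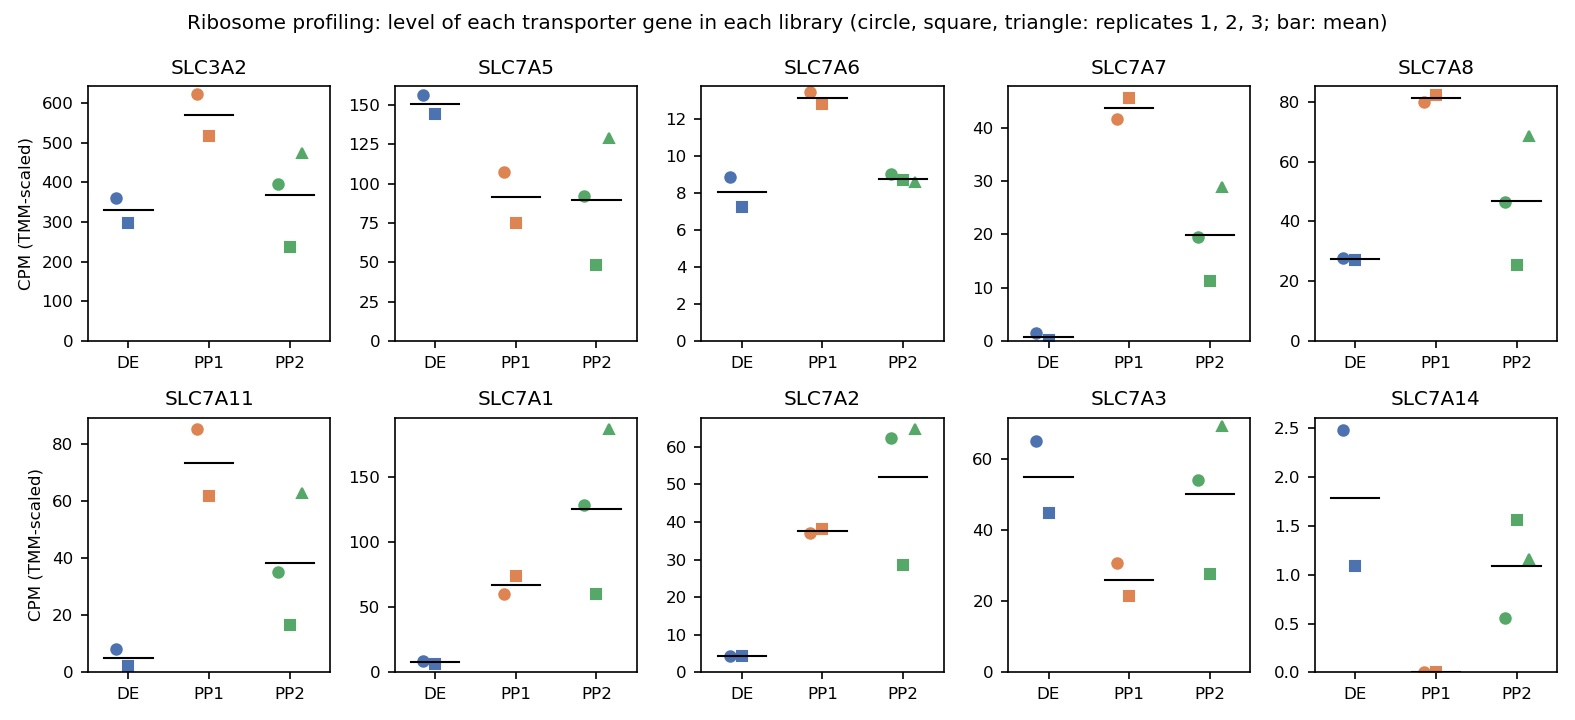
Footprint level of each gene (vertical axis, CPM of TMM-scaled library size, linear from 0, a scale of its own in each panel) in each Ribo library at DE, PP1 and PP2 (circle, square and triangle for replicates 1, 2 and 3, bar for the mean). Both PP1 libraries lie above all others for SLC3A2, SLC7A6, SLC7A7 and SLC7A8, and SLC7A11 has its highest mean at PP1 with PP2 overlapping it. PP2 replicate 2 is the lowest PP2 library for every gene but SLC7A6 and SLC7A14, as for SLC7A1 (60.6 CPM beside 129 and 187 CPM).

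SLC7A1 footprints were at 8.86 and 6.70 CPM in DE, 60.0 and 73.7 CPM in PP1 and 129, 60.6 and 187 CPM in PP2. The PP1 libraries lay far above DE, and PP2 reached from the PP1 level to well above it. Its changes were 3.10 ± 0.54 in PP1 over DE (adjusted p = 0.00531) and 4.01 ± 0.54 in PP2 over DE (adjusted p = 5.72e-04), and the PP1 call was lost without Ribo DE library 1 (3.35, adjusted p = 0.0572) or 2 (2.94, adjusted p = 0.0830). SLC7A2 had 4.25 and 4.35 CPM at DE, 37.1 and 38.0 CPM at PP1 and 62.5, 28.6 and 64.8 CPM at PP2, with changes of 3.12 ± 0.47 and 3.59 ± 0.46 over DE.

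SLC7A7 footprints were nearly absent at DE, with 8 and 1 counts (1.42 and 0.181 CPM), and stood at 41.7 and 45.6 CPM in PP1 and 19.6, 11.3 and 28.97 CPM in PP2. The rise in PP1 of 5.74 ± 0.73 (adjusted p = 8.79e-04) therefore starts from 9 counts. SLC7A11 had 8.16 and 2.17 CPM at DE, 85.0 and 61.6 CPM at PP1 and 35.1, 16.7 and 62.9 CPM at PP2. Its changes over DE were 3.82 ± 0.71 in PP1 (adjusted p = 0.00797) and 2.89 ± 0.66 in PP2 (adjusted p = 0.0100), and PP2 library 3 overlapped PP1. Without Ribo DE library 2 both calls were lost (3.20, adjusted p = 0.0731, and 2.31, adjusted p = 0.0743).

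SLC3A2 footprints were at 361 and 298 CPM at DE, 623 and 517 CPM at PP1 and 396, 236 and 475 CPM at PP2. PP1 lay above DE, and PP2 overlapped DE. SLC7A5 had 157 and 144 CPM at DE, 108 and 75.2 CPM at PP1 and 92.0, 48.0 and 129 CPM at PP2, so the PP2 libraries covered the whole PP1 range. Neither passed in any footprint comparison. SLC7A8 had 27.7 and 27.0 CPM at DE, 79.9 and 82.5 CPM at PP1 and 46.4, 25.4 and 68.6 CPM at PP2, and its PP1 change of 1.57 ± 0.45 narrowly missed (adjusted p = 0.0588).

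SLC7A3 had 65.2 and 44.9 CPM of footprints at DE, 30.7 and 21.5 CPM at PP1 and 54.0, 27.6 and 69.3 CPM at PP2, with PP1 below DE and PP2 overlapping both. SLC7A6 stayed between 7.24 and 13.5 CPM in all Ribo libraries. SLC7A14 had 20 footprint counts over DE, none at PP1 (at least 4.28-fold lower, not passed) and 50 over PP2.

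No gene passed in footprints between PP2 and PP1 with edgeR, where 5.01% of all genes were called, 2.16% as higher and 2.85% as lower. At an unadjusted p under 0.05, 2 genes were higher and 1 lower, DESeq2 called 0 and limma voom called 4. Among all 15067 genes DESeq2 called 663 higher and 934 lower, and limma voom 1690 higher and 2485 lower. Leaving out Ribo PP2 libraries 1 and 3, which differ in composition from the other Ribo libraries, leaves library 2 as the 1 PP2 library, which is then assumed to vary like the DE and PP1 libraries. That fit gave 4 genes lower in PP2 library 2, SLC7A11 (-2.13), SLC7A7 (-1.95), SLC7A8 (-1.67) and SLC3A2 (-1.27). Between PP2 and DE, SLC7A1, SLC7A2, SLC7A7 and SLC7A11 rose and none fell, with 27.6% of all genes called, 13.1% as higher and 14.5% as lower in PP2. With library 2 as the 1 PP2 library, under the same assumption, these 4 passed and SLC7A5 was at -1.596 (adjusted p = 0.00208).

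**Figure D3:**
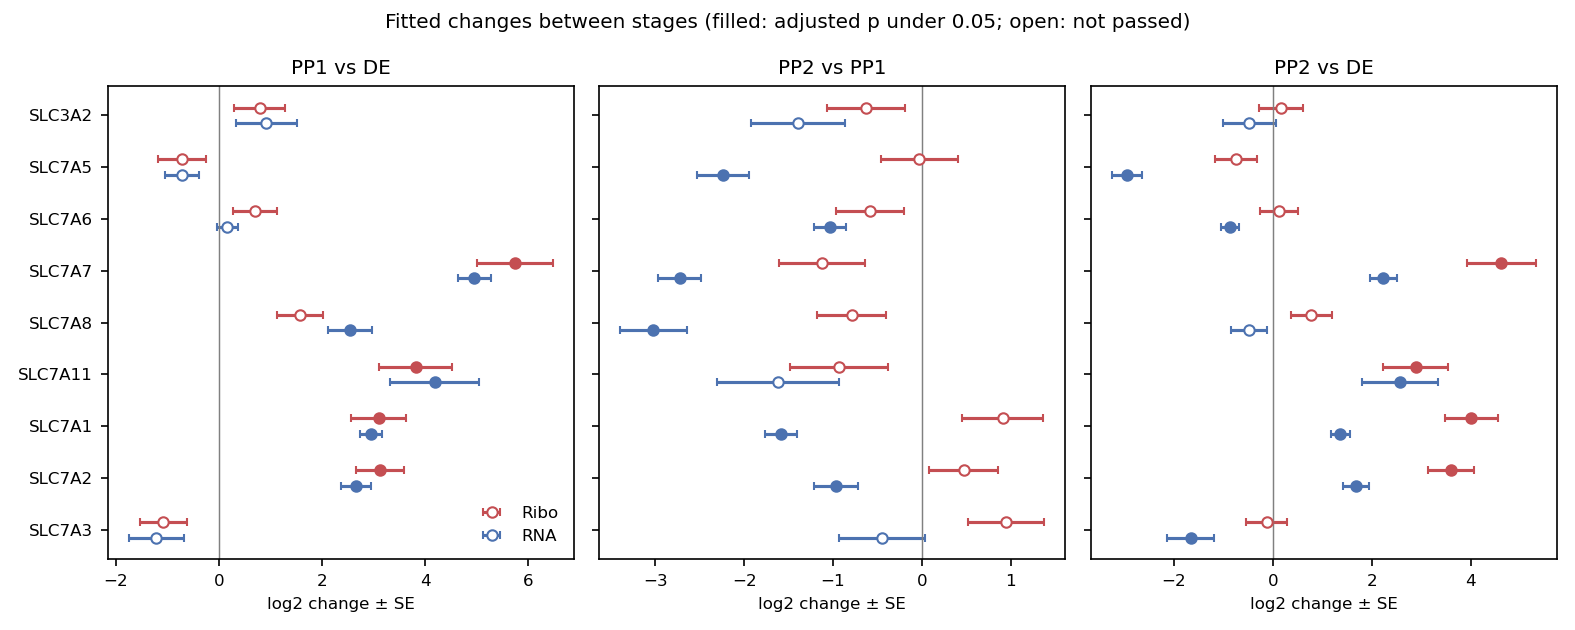
Fitted log2 change ± SE (horizontal axis) of 9 genes in footprints (red) and RNA (blue) for PP1 vs DE, PP2 vs PP1 and PP2 vs DE, with filled points for adjusted p under 0.05 and open points for values that did not pass; SLC7A14, with no counts at PP1, is left out. In PP1 vs DE the assays move together, and in PP2 vs PP1 the footprint values lie to the right of the RNA values, for SLC7A1 at 0.91 against -1.58.

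Per kilobase of annotated exon, the order of the RNA levels at DE was led by SLC7A5, at 247 CPM per kb, then SLC3A2 (45.1), SLC7A3 (23.0), SLC7A8 (8.47) and SLC7A1 (6.73). At PP1 the order was SLC7A5 (151), SLC3A2 (85.5), SLC7A1 (51.8), SLC7A8 (49.4) and SLC7A11 (46.9), where the ranges of SLC7A1, SLC7A8 and SLC7A11 overlapped in turn. At PP2, SLC3A2 (32.4) and SLC7A5 (32.0) led with overlapping ranges. In footprints SLC3A2 led at all 3 stages, at 63.7, 110 and 71.3 CPM per kb for DE, PP1 and PP2, and its range lay apart from the next gene each time. The next gene was SLC7A5 at DE (31.6) and PP1 (19.2), and SLC7A3 at PP2 (22.2), whose range overlapped that of SLC7A5 (18.8). The place of SLC7A3 at PP2 rests on the length scaling, which counts untranslated regions. In CPM with no length scaling, its mean PP2 footprints (50.3) lay below those of SLC7A1 (125), SLC7A5 (89.7) and SLC7A2 (52.0).

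The make-up of the light chains shifted away from SLC7A5 between DE and PP1. By counts per kb, SLC7A5 was 93.8% and 93.5% of the RNA of the 5 light chains at DE, 52.6% and 53.5% at PP1 and 63.9%, 63.2% and 32.3% at PP2. Its share of footprints was 82.6% and 84.1% at DE, 41.3% and 33.9% at PP1 and 54.1%, 52.0% and 52.2% at PP2. SLC7A11 made up 16.8% and 16.2% of light-chain RNA at PP1, against 1.12% and 0.835% at DE, and 52.7% in RNA PP2 library 3. SLC7A8 took 24.4% and 29.6% of light-chain footprints at PP1, against 11.6% and 12.5% at DE.

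Summed light chains over SLC3A2 gave a much lower ratio in footprints than in RNA. The RNA ratio was 5.93 and 5.78 at DE, 3.30 and 3.36 at PP1 and 3.28, 3.59 and 1.005 at PP2. The footprint ratio was 0.570 and 0.626 at DE, 0.454 and 0.466 at PP1 and 0.466, 0.425 and 0.565 at PP2. Both ratios were lower in PP1 than in DE in every library, and the PP2 footprint ratios fell on either side of PP1 while staying under DE. The place of PP2 under DE depended on the length scaling. With none, the footprint ratio was 0.561 and 0.607 at DE and 0.510, 0.466 and 0.628 at PP2, so PP2 library 3 lay above DE. An exact test of 2 against 2 libraries cannot go below p = 0.333, nor 3 against 2 below p = 0.2, and none is given. The lengths used include untranslated regions, which carry few footprints, so the footprint ratio understates genes with long untranslated regions.

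**Figure D4:**
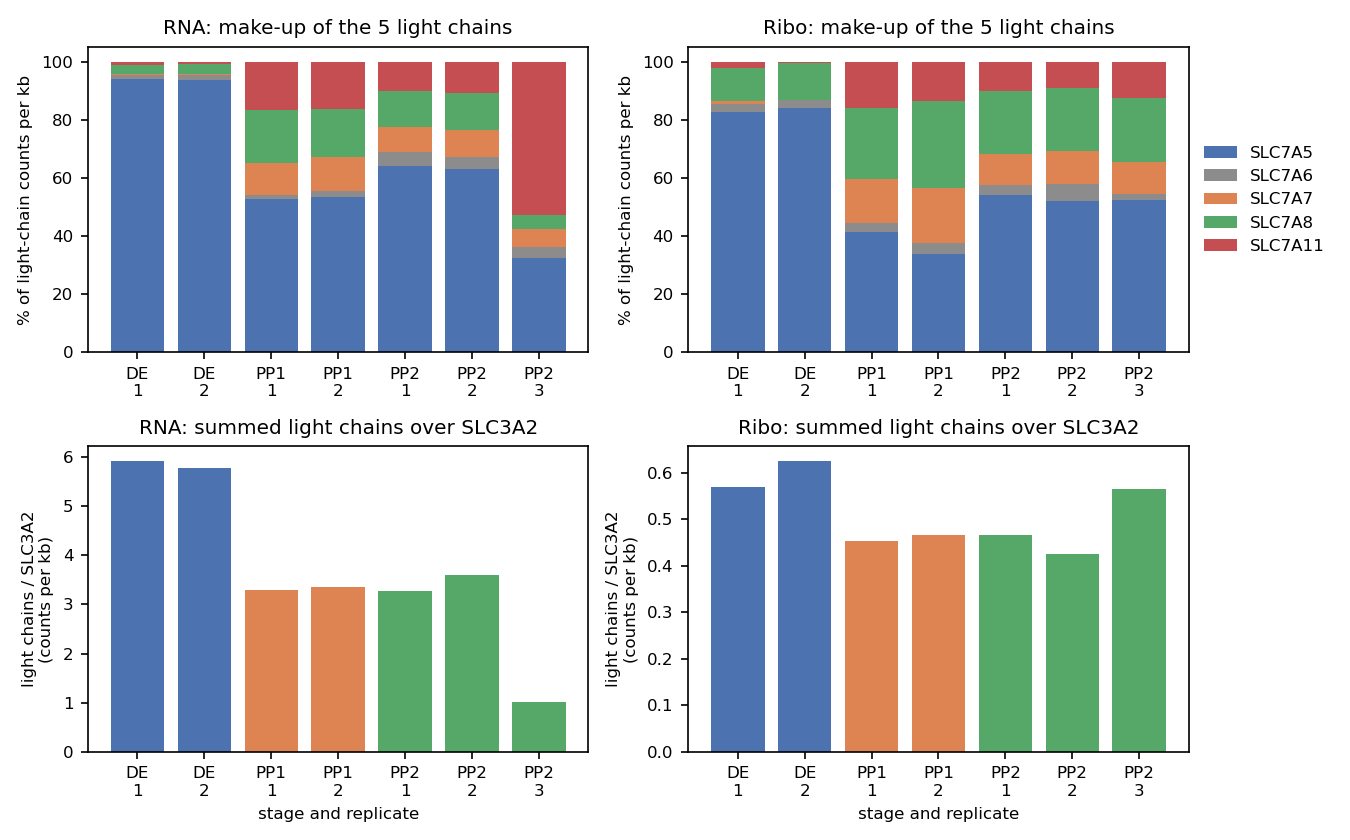
Top, share of each of the 5 light chains in their summed counts per kb (percent); bottom, summed light chains over SLC3A2 (ratio of counts per kb, bars from 0), for each RNA library (left) and Ribo library (right). SLC7A5 fills 93.8% and 93.5% of light-chain RNA at DE, and RNA PP2 replicate 3 stands apart with 52.7% SLC7A11 and a ratio of 1.005.

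Within the 3 cationic carriers the balance turned from SLC7A3 to SLC7A1 and SLC7A2. SLC7A3 was 64.9% and 70.2% of their RNA per kb at DE, 12.3% and 10.1% at PP1 and 11.9%, 13.1% and 27.8% at PP2. In footprints it held 94.4% and 93.3% at DE, 52.0% and 39.7% at PP1 and 49.1%, 51.4% and 48.5% at PP2. SLC7A1 had 3.79% and 4.11% of the cationic footprints at DE, 29.99% and 40.2% at PP1 and 34.6%, 33.3% and 38.5% at PP2. The footprint shares divide by exon length with untranslated regions, 2268 bases for SLC7A3, 7688 for SLC7A1 and 7905 for SLC7A2. They therefore do not rank the 3 carriers. In CPM with no length scaling, mean SLC7A1 footprints lay above those of SLC7A3 at PP1 (66.9 against 26.1) and PP2 (125 against 50.3). At DE they lay below (7.78 against 55.1).

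Footprints relative to RNA differed widely between the genes. The log2 ratio of mean Ribo CPM to mean RNA CPM was ranked among the genes measured in both assays, 13955 at DE, 14026 at PP1 and 14079 at PP2. SLC3A2 stood at the 85.1st, 88.4th and 95.5th percentile at DE, PP1 and PP2, and SLC7A3 at the 78.5th, 86.3rd and 97.7th. SLC7A5 stood at the 6.40th, 5.47th and 57.1st percentile and SLC7A1 at the 9.19th, 9.59th and 77.9th. These PP2 values average 3 unlike Ribo libraries: with 1 Ribo library at a time over the mean RNA, a setting chosen after seeing the data, SLC7A5 stood at the 59.9th, 29.7th and 74.0th percentile in PP2 libraries 1, 2 and 3 and SLC7A1 at the 77.9th, 46.8th and 88.4th. By stage means, SLC7A11 stood at the 17.2nd, 8.93rd and 20.8th percentile at DE, PP1 and PP2. By single Ribo library it varied more, at the 35.6th and 4.16th in DE libraries 1 and 2 and the 24.4th, 4.23rd and 44.8th in PP2 libraries 1, 2 and 3.

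**Figure D5:**
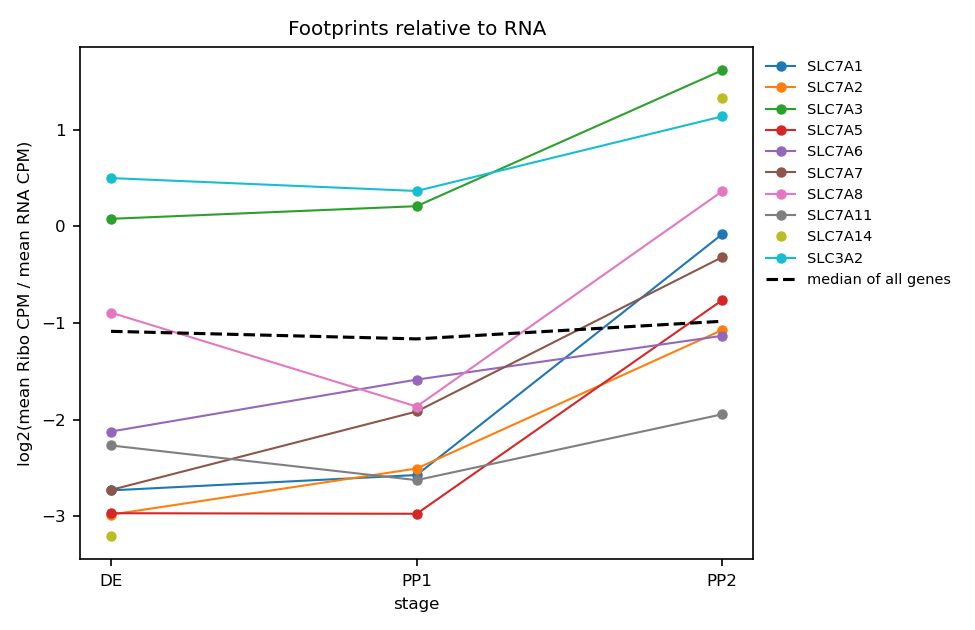
Log2 ratio of mean Ribo CPM to mean RNA CPM (vertical axis) of each gene at DE, PP1 and PP2, with the median of all genes dashed; SLC7A14 has no PP1 value. SLC3A2 and SLC7A3 lie above the median at each stage, and SLC7A1 and SLC7A5 lie below it at DE and PP1 (SLC7A1 at -2.73 and -2.57) and above it at PP2, though below it in Ribo PP2 library 2 alone (-1.13 for SLC7A1 and -1.66 for SLC7A5).

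The change in footprints beyond that in RNA was tested as the interaction of assay and stage in 1 fit. Between PP2 and DE it was higher in PP2 for SLC7A1 (2.55 ± 0.53, adjusted p = 0.0173), SLC7A2 (1.82 ± 0.48, adjusted p = 0.0392), SLC7A5 (2.09 ± 0.57, adjusted p = 0.0449) and SLC7A14 (4.33 ± 0.97, adjusted p = 0.0261). Of 14152 genes, 5.6% were called, 2.04% as higher and 3.56% as lower. The median of the 10 genes was 1.64, against 0.042 over all genes. For SLC7A1 the parts were 4.01 in footprints and 1.36 in RNA, and for SLC7A5 they were -0.75 and -2.95. For SLC7A14 they were -0.74 and -5.19, on 50 footprint counts and 27 RNA counts over the PP2 libraries. Its RNA, with 526 counts over DE and 0 over PP1, passed the count filter through DE, so its RNA fall was favoured by the filter. Leaving out Ribo PP2 libraries 1 and 3, so that library 2 stood for PP2 with the spread of the other groups, ended all 4 calls, with values of 1.56 for SLC7A1, 1.03 for SLC7A2, 1.26 for SLC7A5 and 4.97 for SLC7A14. Leaving out either RNA DE library or Ribo DE library 2 also ended all 4 calls (adjusted p 0.0506 to 0.160). With 1 library left out, SLC7A2 kept its call only without RNA PP2 library 3 or Ribo PP2 library 2, SLC7A5 only without those or RNA PP2 library 2, and SLC7A14 also lost it without RNA PP2 library 1 or 2 or Ribo PP2 library 3. Without RNA PP2 library 3 and Ribo PP2 libraries 1 and 3, a setting chosen after seeing the data that also leaves 1 Ribo PP2 library and borrows its spread from the other groups, SLC7A1 (1.47), SLC7A2 (1.26), SLC7A3 (1.38) and SLC7A14 (5.53) passed.

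Between PP1 and DE no gene passed this test with edgeR (0.261% of all genes called, 0.0707% as higher and 0.191% as lower; 0 at an unadjusted p under 0.05, 0 by DESeq2 and 0 by limma voom). Between PP2 and PP1 none passed either, where 0.0283% of all genes were called. In that comparison 5 genes were higher at an unadjusted p under 0.05, with SLC7A1 at 2.38 ± 0.51 in the edgeR fit (adjusted p = 0.112). DESeq2 called 3 of the genes, and among all 14152 genes it called 71 higher and 151 lower. Limma voom called 8, and among all genes 1111 higher and 823 lower. No share of all genes is given for the unadjusted count. SLC7A14, without counts at PP1, gives no value in either comparison and is not counted.

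Of the other SLC7 and SLC3 genes in the table, SLC7A9, the cystine carrier of kidney and gut epithelium, had 115 RNA counts over PP1 against 1 over DE, a ratio of 108 (95% interval for counting error only, 19.1 to 4320). It stayed at 4.31 CPM or less in RNA. SLC3A1, its heavy chain, stayed between 1.13 and 2.21 CPM and SLC7A10 under 1 CPM in RNA, neither passing. SLC7A4 had at most 2 RNA counts in a library and SLC7A13 none.

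Other amino acid transporters of the plasma membrane moved in the same step: in PP1 RNA, 10 of 18 tested rose and 4 fell relative to DE, against 12.3% higher and 12% lower of all genes, with a median change of 1.33. Among them, SLC1A3, a glutamate carrier, changed by 4.81 ± 0.37, SLC43A1, a large neutral amino acid carrier, by 4.16 ± 0.50 and SLC1A4, which carries serine and alanine, by 3.18 ± 0.27. SLC38A5, a glutamine carrier, changed by -3.12 ± 0.33. Between PP2 and PP1, 9 of the 18 fell and 2 rose, against 10.6% lower and 7.8% higher of all genes. Of 10 lysosomal transporters, 2 fell in PP1 over DE and 4 in PP2 relative to PP1, against 12% and 10.6% of all genes called lower.

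ATF4 itself had 358 ± 5.3 CPM of RNA at DE (SD, n = 2), 720 ± 37.9 CPM at PP1 (SD, n = 2) and 393 ± 153 CPM at PP2 (SD, n = 3). Its change of 1.01 ± 0.33 in PP1 over DE did not pass (adjusted p = 0.0557). Of 21 ATF4 target genes tested, outside the transporters, 19 rose in RNA in PP1 over DE, against 12.3% of all genes. Their median change was 3.12. TRIB3, a pseudokinase that restrains ATF4, changed by 6.001 ± 0.93, STC2, a secreted glycoprotein, by 5.61 ± 0.76, and DDIT4, an inhibitor of mTORC1, by 4.40 ± 0.75. Between PP2 and PP1, 16 of the 21 fell, against 10.6% of all genes, with a median of -2.08. In footprints 13 of 21 rose in PP1 over DE, against 4.52% of all genes. In PP2 relative to PP1, 8 fell in footprints, against 2.85% of all genes.

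Of 16 genes of cystine use and glutathione synthesis, 4 were called in PP1 RNA over DE, near the 24.3% of all genes called in either direction, and all 4 rose, namely CHAC1 (4.30 ± 0.65), which degrades glutathione, the glutathione peroxidase GPX2 (3.79 ± 0.32), CTH (3.12 ± 0.54), which makes cysteine, and GGT1 (2.09 ± 0.23), which breaks down extracellular glutathione. CHAC1 and CTH are also on the ATF4 list. Between PP2 and PP1, 8 of the 16 fell, against 10.6% of all genes, among them GPX2 (-3.61 ± 0.27) and GGT1 (-3.04 ± 0.21). Of 14 NRF2 targets, 2 rose (HMOX1, 1.85 ± 0.27, and FTL, 1.55 ± 0.45) and 2 fell in PP1 over DE, near the 12.3% higher and 12% lower of all genes. In PP2 relative to PP1, 6 of the 14 fell, against 10.6% of all genes, HMOX1 by 4.31 on the log2 scale. NRF2 itself (NFE2L2) did not pass in RNA in PP1 over DE (0.54 ± 0.18, adjusted p = 0.0609) and rose in footprints (1.74 ± 0.46, adjusted p = 0.0452).

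Among 29 genes of amino acid sensing by mTORC1, 5 rose and 1 fell in PP1 RNA over DE, in all no larger a share than the 24.3% of all genes called, including the leucine sensor SESN2 (2.86 ± 0.32) and its relative SESN3 (3.25 ± 0.24). Between PP2 and PP1, 4 of the 29 fell, near the 10.6% of all genes called lower. Of 19 genes of arginine, polyamine and ornithine metabolism, 2 rose and 3 fell in PP1, again near the share of all genes. The inducible nitric oxide synthase gene NOS2 was listed at 0 in PP1, against 15.2 CPM at DE. SAT1, which acetylates polyamines, changed by 3.84 ± 0.60 and the mitochondrial arginase ARG2 by 1.19 ± 0.35. ASS1, which makes arginine from citrulline, was lower in PP2 than in PP1 (-4.19 ± 0.47). Of 12 genes of branched-chain and aromatic amino acid breakdown, 3 were called in PP1 RNA over DE, near the 24.3% of all genes. All 3 rose, among them TDO2 (7.01 ± 0.75), a tryptophan-degrading enzyme of liver. Of 13 regulators of the transporters, EPAS1 (4.06 ± 0.34), MYC (1.59 ± 0.27) and the stress kinase gene EIF2AK3 (0.94 ± 0.24) rose and EIF2AK2 fell (-0.87 ± 0.18) in PP1 RNA. Among all genes, 12.3% were called higher and 12% lower in that step.

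Likeness of pattern was measured as Pearson's r of log2(CPM + 1) over the 14 libraries, each assay centred on its own mean, among 7895 genes with a mean of at least 10 CPM in both assays. The libraries share their stage and depth, so r is a description. SLC7A11 was most like SHMT2 (r = 0.983), the mitochondrial serine hydroxymethyltransferase, SLC43A1 (0.977) and STC2 (0.977). SLC7A7 was most like CKB (0.991), SLC7A2 like MARVELD2 (0.985) and the apolipoprotein gene APOA1 (0.984), SLC7A1 like CTSB (0.982) and SLC7A8 like REEP6 (0.981) and the alanyl-tRNA synthetase gene AARS (0.963). SLC3A2 was most like MYDGF (0.932), GOLPH3 (0.918) and MANF (0.899), and SLC7A5 like MRPS34 (0.965). SLC7A3 was most like CDKN1B (0.930). Between members r was 0.973 for SLC7A1 and SLC7A2 and 0.920 for SLC7A7 and SLC7A11. SLC3A2 reached 0.675 with SLC7A6 and 0.423 with SLC7A5. SLC7A6 and SLC7A14 were under the level required.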

How the data were processed

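RNA and Ribo libraries of HUES8 cells were supplied as 1 deposited table of raw counts per gene, which the authors made from their reads. Per the submitters' processing notes the tools were cutadapt 1.18, Bowtie 1.2, STAR 2.7.1a and featureCounts 1.6.4 with the hg38 build; strand setting and footprint length filter are not given in the sources used here. From the counts, edgeR 4.0.16 in R 4.3.3 was run per assay on all 3 stages after filtering low counts (filterByExpr) with TMM scaling, quasi-likelihood tests and Benjamini-Hochberg adjustment over 24603 RNA and 15067 Ribo genes, with adjusted p under 0.05 as the call. Footprints relative to RNA were tested as the assay by stage interaction over 14152 genes, TMM being done within each assay. SE was derived from the fit as the change divided by the square root of F. DESeq2 1.42.0 and limma 3.58.1 served as alternatives. Lengths are those of the count table (annotated exons); coding lengths, first planned, were not used here. The scripts were tested on simulated data.

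The 10 members and the gene lists were chosen with earlier results of these data known. Named genes were all members, the other SLC7 and SLC3 genes and, from each list, up to 4 passing genes by size of change that averaged 10 CPM or more in 1 of the stages compared, with ATF4 always given. 1 gene that this rule names is not reported here. Sequences are from RefSeq (GRCh38.p14).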

Additional observations from a re-analysis of the deposited data

Results flagged for a closer look

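For 4 genes the PP2 change over DE differed between assays, by the test of the difference itself. SLC7A1 changed by 2.55 more on the log2 scale in footprints than in RNA, SLC7A2 by 1.82 more, SLC7A5 by 2.09 more and SLC7A14 by 4.33 more. SLC7A14 rests on 50 footprint and 27 RNA counts over the PP2 libraries. Its RNA passed the count filter through the DE libraries, where it was high. All 4 lost their call without Ribo PP2 libraries 1 and 3, which leaves 1 PP2 library. In libraries 1 and 3 protein-coding genes took 91.5% and 77.5% of counts, against 42.6% in PP2 library 2. The part of that composition in the result was not tested.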

How the results depend on the processing

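The counts of genes called moved with the setting in most comparisons, and the causes were not tested. Calls over all genes moved too. Without RNA PP2 library 3, RNA PP1 vs DE gave 6049 higher and 5948 lower of 24105. Limma voom called 1551 higher and 1497 lower of 15067 for Ribo PP1 vs DE, and 1690 and 2485 for Ribo PP2 vs PP1. With only the compared stages, Ribo PP1 vs DE gave 1650 and 1499 of 13729. The counts that follow are of the 10 genes. With each library left out in turn, the count was 5 to 9 for RNA PP1 vs DE (6 in the full fit), 4 to 10 for RNA PP2 vs PP1 (7), 5 to 9 for RNA PP2 vs DE (8), 2 to 6 for Ribo PP1 vs DE (4), 0 to 2 for Ribo PP2 vs PP1 (0), 3 to 5 for Ribo PP2 vs DE (4), 0 to 5 for the interaction of PP2 vs PP1 (0) and 0 to 5 for that of PP2 vs DE (4). Ribo PP1 vs DE gave 7 with limma voom, with only the compared stages and without Ribo PP2 libraries 1 and 3, which leaves 1 PP2 library. Ribo PP2 vs PP1 gave 4 with limma voom and without those libraries. The interaction of PP1 vs DE gave 1 with only the compared stages and, as a setting chosen after seeing the data, without RNA PP2 library 3 and Ribo PP2 libraries 1 and 3. That of PP2 vs PP1 gave 2 with no low-count filter, 3 with DESeq2 and 8 with limma voom. That of PP2 vs DE gave 2 with protein-coding genes only (12221 genes tested against 14152, SLC7A14 not among them), 1 with a mean of at least 50 counts, 1 with only the compared stages and 0 without Ribo PP2 libraries 1 and 3. The footprint ratio of light chains to SLC3A2 at PP1 was 0.460, and 0.531 with no length scaling.

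With the replicate block the interaction of PP2 vs DE gave 1 gene, RNA gave 9, 10 and 9 for PP1 vs DE, PP2 vs PP1 and PP2 vs DE, Ribo gave 4, 0 and 4, and the other interactions gave 0. Among all 24603 RNA genes the block called 5910 higher and 5801 lower, 4232 and 5526, and 5997 and 6478, in the same order. For Ribo it called 475 and 270, 87 and 114, and 840 and 842 of 15067. The interaction of PP2 vs DE gave 60 and 215 of 14152. Libraries of the same number correlated at -0.398 to 0.316 in their deviations from the group means. With so few libraries in a group, these deviations are not independent of each other. The correlations therefore cannot decide whether the numbers pair the samples.

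Values that had not passed changed sign under some settings; the value with all libraries is in parentheses. Between PP2 and PP1, footprints of SLC7A5 (-0.027) gave 0.27 with no filter, 0.22 with limma voom and -0.38 to 0.32 with a library left out, and without Ribo PP2 libraries 1 and 3 SLC7A1 (0.91) gave -0.14 and SLC7A2 (0.47) -0.39. For footprints of PP2 vs DE, SLC7A3 (-0.13) gave 0.18 with no filter, 0.096 with limma voom and -0.43 to 0.24 with a library left out; SLC3A2 (0.16) gave -0.13 with at least 50 counts, -0.094 with the block, -0.43 without Ribo PP2 libraries 1 and 3 and -0.063 to 0.43 with a library left out; SLC7A6 (0.12) gave -0.16 with at least 50 counts, SLC7A8 (0.78) -0.056 without Ribo PP2 libraries 1 and 3 and SLC7A14 (-0.74) -1.14 to 0.043 with a library left out. For the interaction of PP1 vs DE, SLC7A5 (0.0041) gave -0.0013 with no filter, -0.046 with at least 50 counts, -0.014 with limma voom, -0.018 with the block and with only the compared stages, and -0.27 to 0.25 with a library left out; SLC7A3 (0.14) gave -0.13 to 0.47, SLC3A2 (-0.12) -0.25 to 0.057 and SLC7A11 (-0.35) -0.97 to 0.93 with a library left out. For the interaction of PP2 vs DE, SLC7A11 (0.27) gave -0.86 without Ribo PP2 libraries 1 and 3 and -0.32 to 1.58 with a library left out, SLC3A2 (0.57) gave -0.0031 without those Ribo libraries and SLC7A8 (1.14) gave -0.017 in the setting chosen after seeing the data. SLC7A11 (0.62) gave -0.55 for PP2 vs PP1 without Ribo PP2 libraries 1 and 3.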
